A study of Mus musculus with 6 samples.

Results

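A set of 33 genes for the acidification and the membrane of the lysosome were followed in a mouse dendritic cell line given a mimic of viral RNA. The set was chosen by name, with earlier results of these data known. It holds 17 genes of the vacuolar H+-ATPase (V-ATPase) and 16 genes of lysosomal membrane proteins, channels, transcription factors and hydrolases, with no cathepsins. All 33 matched transcripts in the deposited table, which gave 32903 gene symbols in all. The cells were MuTuDC1940, which resemble conventional dendritic cells of type 1 (cDC1), known for cross-presenting material from dead cells to CD8+ T cells. Poly(I:C), a synthetic double-stranded RNA, was given at 5 µg/ml for 18 h, and the reference cells of the same line were untreated. The series has 6 samples, 3 per group, and 2 libraries per group were used here, headed PolyIC01 and PolyIC02 for poly(I:C) and NT01 and NT02 for untreated cells. All come from a single established line, and nothing in the labels tells whether they were separate cultures, so a p-value here reflects the spread of the 4 libraries only, which may be technical.

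The lysosome is an acidic compartment in which engulfed and worn-out material is broken down. The V-ATPase makes it acidic. Its V1 sector, on the cytosolic face, splits ATP, and its V0 sector, in the membrane, carries protons inward. Heavily glycosylated proteins such as LAMP1 and LAMP2 line the membrane, channels such as TRPML1 (gene Mcoln1) and the two-pore channels (Tpcn1 and Tpcn2) let calcium and sodium ions out, and soluble hydrolases work in the lumen. Many of these genes are known targets of the transcription factors TFEB and TFE3, which bind a 10-base site around the letters CACGTG. In dendritic cells, lysosomal acidity and proteolysis are known to be regulated, since fast breakdown destroys antigen and slow breakdown spares it.

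Levels are in TPM (an abundance relative to a fixed total and corrected for transcript length), summed over the transcripts of a gene. Each library sums to 1000000 TPM, so how deeply it was sequenced is not known, and the size of its counting error cannot be given. A gene was tested where it averaged at least 0.5 TPM over the 4 libraries, which 12520 genes and 31 of the 33 members did. It is said to have risen or fallen where limma's adjusted p was under 0.05, adjusted over all 12520 genes. Log2 fold changes are poly(I:C) over untreated on the log2(TPM + 1) scale, given with their standard error (SE), and folds are ratios of mean TPM. The treatment check held: Ifit3, an interferon-stimulated gene, had 209.9 and 187 TPM with poly(I:C), against 3.75 and 3.24 TPM in untreated cells. Irf7, which encodes an interferon regulatory factor, had 41.4 and 37.5 TPM with poly(I:C), against 0.232 and 0.247 TPM in untreated cells.

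The CACGTG letters were looked for in the promoters of the members, since these are the letters at which the factors encoded by Tfeb and Tfe3 bind. Windows ran from 250 bases before to 50 bases after a listed start of a gene (RefSeq, build GRCm38.p6). They were on hand for 26 of the 33 members and for 27025 genes in all. A gene was counted where any window of it held the letters. CACGTG, which reads the same on both strands, was in 8 of the 26 members (30.8%), against 8.09% of all genes with a window. The longer TCACGTGA, also its own reverse complement and holding CACGTG inside it, was in 5 of the 26 (19.2%), against 1.12% of all these genes. TCACGTGA with a G before it and a C after it was in none of the 26 and in 0.37% of all these genes. A pair of GAAA repeats with any 2 bases between them, a core of sites for interferon regulatory factors, was searched on both strands. It was in 2 of the 26 (7.69%, Atp6v1d and Lamp1), against 3.99% of all these genes. These are matches of letters and were not tested. The members with no window were Atp6v1b2, Atp6v1c1, Atp6v1g1, Atp6v1h, Atp6v0a2, Atp6v0d2 and Tpcn1. The 5 genes with TCACGTGA are shown here with 10 bases on each side, 5′ to 3′ on the strand of the gene, with TCACGTGA in capitals. Gla has the letters at 2 places.
Mcoln1, chr8:3500463-3500490, plus strand: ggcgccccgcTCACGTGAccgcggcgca
Atp6v1a, chr16:44139374-44139401, minus strand: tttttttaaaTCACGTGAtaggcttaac
Atp6v0d1, chr8:105566051-105566078, minus strand: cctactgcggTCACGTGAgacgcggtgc
Atp6v0e, chr17:26676388-26676415, plus strand: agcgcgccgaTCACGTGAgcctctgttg
Gla, chrX:134601216-134601243, minus strand: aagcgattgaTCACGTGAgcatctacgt
Gla, chrX:134601183-134601210, minus strand: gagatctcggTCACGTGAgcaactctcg
The letters began 46 bases before the start in Mcoln1 and 4 before it in Atp6v0d1. In Gla they began 228 and 195 bases before it, and in Atp6v0e 2 bases after it. In Atp6v1a they began 132 bases before the start used for its window. The printed Atp6v1a stretch lies inside the gene's whole span (chr16:44085402-44139702), so the start used is not the 5′ end of that span. The whole 250 bases before the start of Mcoln1, the calcium channel gene that rose, are shown because they hold a second CACGTG, in lower case, 5′ of the capitals.
Mcoln1, chr8:3500269-3500518, plus strand: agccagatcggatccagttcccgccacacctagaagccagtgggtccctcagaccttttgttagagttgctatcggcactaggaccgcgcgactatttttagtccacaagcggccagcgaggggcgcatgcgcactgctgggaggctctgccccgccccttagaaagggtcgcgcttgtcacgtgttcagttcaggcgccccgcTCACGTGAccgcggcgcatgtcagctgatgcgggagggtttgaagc

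Most V-ATPase transcripts were higher after poly(I:C), by modest folds. Of the tested members outside the pump, 53.3% rose and 26.7% fell. Of the 31 members tested, 21 rose (67.7%), 5 fell (16.1%) and 5 did not pass, where 28.4% of all tested genes rose and 32.4% fell. The members that fell were Tpcn1, Tfeb, Laptm5, Hexa and Atp6ap1. The median log2 fold change of the tested members was 0.37, against -0.02 over all tested genes. Both poly(I:C) libraries lay above both untreated ones for 22 members and below them for 8, where 38.9% and 42.4% of all tested genes did so. Large changes were few. By log2 fold change, Atp6v0c was the member to rise 2-fold or more, as 5.69% of all genes did. Tpcn1 was the member to fall 2-fold or more, as 2.76% did. Atp6v0a1 was just under the limit on this scale (0.97) but rose 2.02-fold as a ratio of mean TPM. The counts were similar under the other processing settings run, with 20 to 22 members risen and 4 to 6 fallen. In bulk RNA, fewer cells of a type and less RNA per cell cannot be told apart.

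**Figure D1:**
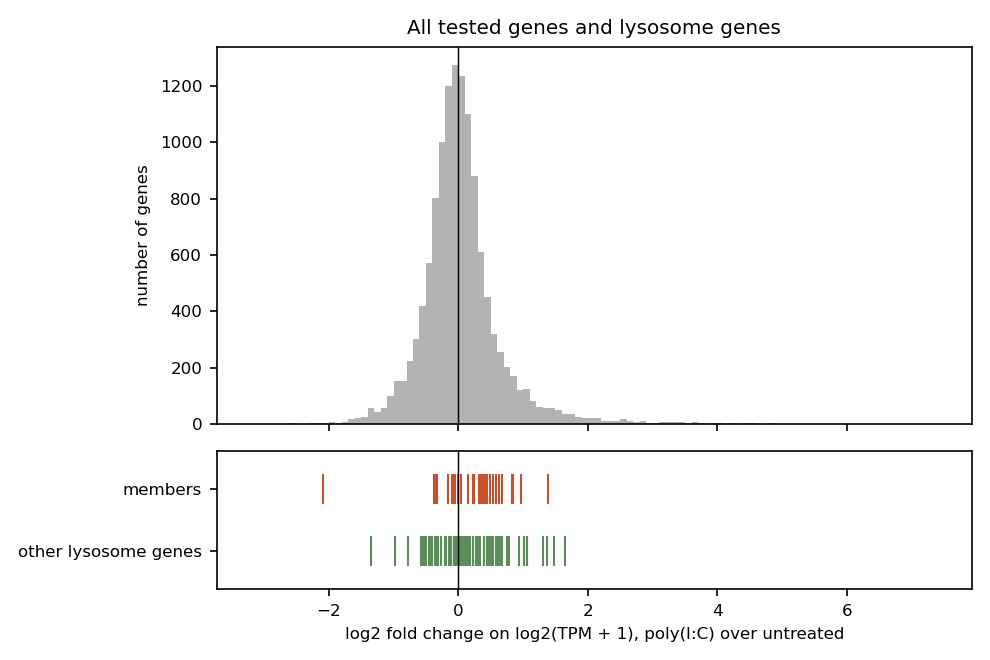
Log2 fold changes (x axis, poly(I:C) over untreated, on log2(TPM + 1)) of all tested genes as a histogram, and below it 1 tick for each of the 31 tested members and the 92 tested other lysosome genes. Most member ticks lie right of 0, with Atp6v0c at 1.39 farthest right and Tpcn1 at -2.09 far left of the rest.

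The members are abundant transcripts. The median level of the 31 tested members was 171 TPM with poly(I:C) and 152 TPM in untreated cells. Over all tested genes it was 17.2 TPM with poly(I:C) and 17.3 TPM in untreated cells. Psap, which encodes the precursor of the saposins that help glycolipid breakdown, was ranked 7 of all tested genes with poly(I:C) and 8 in untreated cells. The summed TPM of the members was 12795 and 13107 with poly(I:C), against 11512 and 11738 in untreated cells. Without Psap the sum was 7421 and 7503 TPM with poly(I:C), against 5843 and 5887 TPM in untreated cells. In both sums the groups did not overlap.

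**Figure D2:**
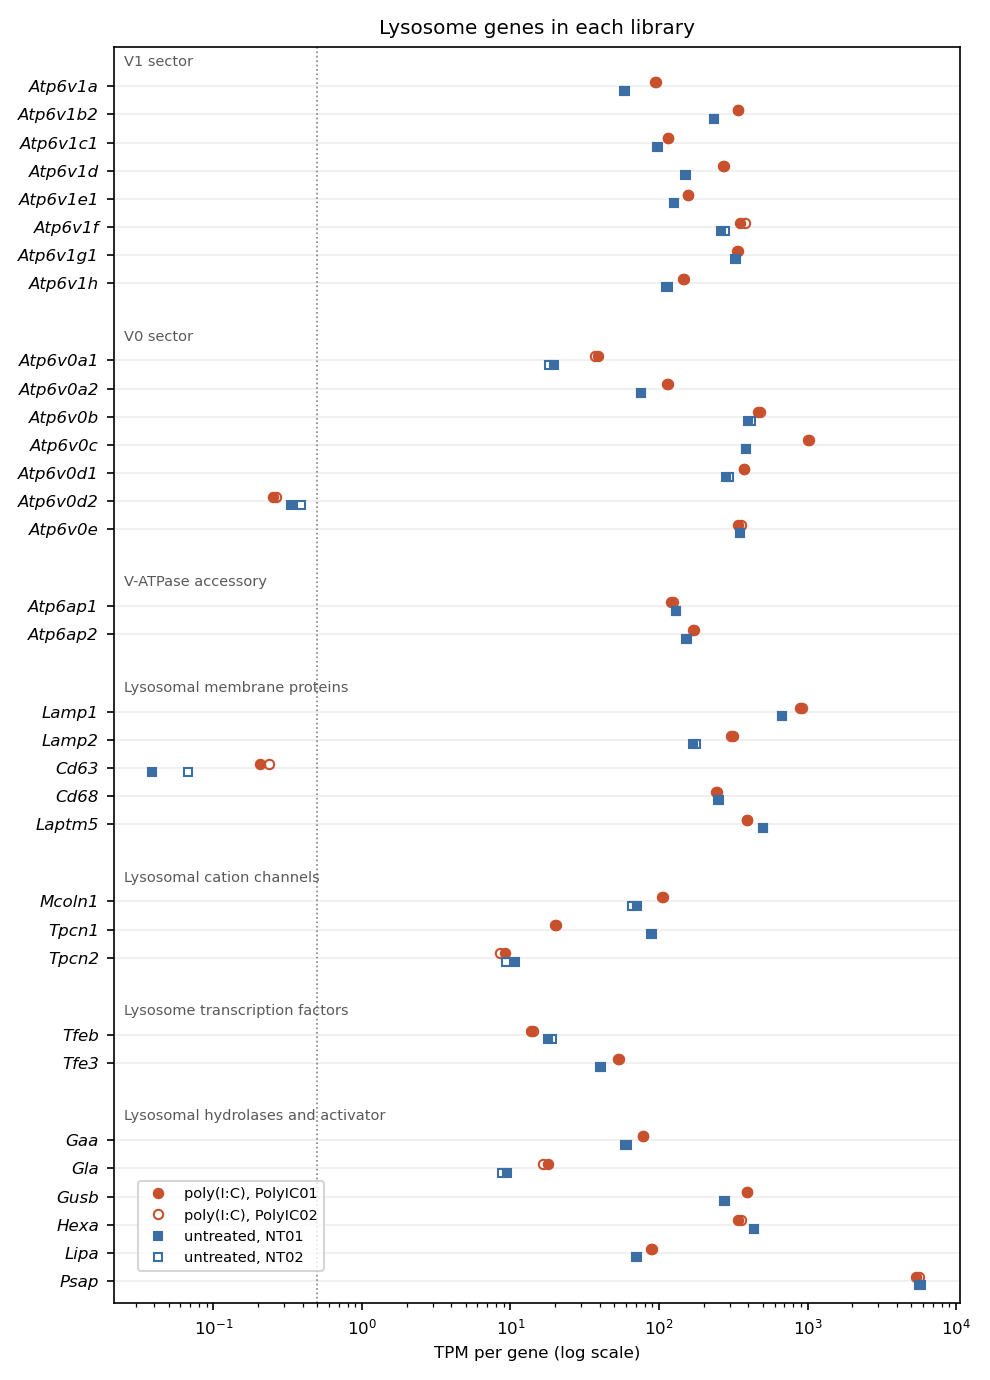
TPM of the members (log axis) in each library, by role, with poly(I:C) circles drawn above untreated squares and a dotted line at the 0.5 TPM limit for testing. The library values lie close together within a group, and for Tpcn1 the poly(I:C) points near 20 TPM stand well apart from the untreated points near 90 TPM.

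In the V1 sector, 7 of the 8 members rose (87.5%), none fell, and the median log2 fold change was 0.41. Of all tested genes, 28.4% rose and 32.4% fell. Atp6v1a encodes subunit A, which splits ATP. It had 95.3 and 93.6 TPM with poly(I:C), against 58.9 and 58.6 TPM in untreated cells. The groups did not overlap, and the gene rose 1.61-fold (log2 fold change 0.68, SE 0.031, adjusted p = 2.53e-05). Atp6v1b2, for the B subunit that forms the catalytic ring with A, had 342 and 339.6 TPM with poly(I:C), against 236 TPM in both untreated libraries. It rose 1.45-fold (log2 fold change 0.53, adjusted p = 2.24e-05). Both catalytic ring genes were thus clearly higher in treated cells, and the tight libraries of each group lay well apart.

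Atp6v1d, for subunit D of the central rotor shaft, showed the highest V1 fold. It had 276 and 271 TPM with poly(I:C), against 153 and 151 TPM in untreated cells, a 1.81-fold rise (log2 fold change 0.85, SE 0.026, adjusted p = 7.27e-06). Atp6v1f, also of the shaft, had 351 and 378 TPM with poly(I:C), against 259.7 and 278 TPM in untreated cells. Its replicates were farther apart than those of Atp6v1d but the groups did not overlap, and it rose 1.36-fold (adjusted p = 0.000903).

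Genes for subunits of and around the stator stalks, which hold the catalytic ring still, were mostly higher as well. Atp6v1e1 (subunit E) had 157 and 158 TPM with poly(I:C), against 126 and 125 TPM in untreated cells, and rose 1.25-fold (adjusted p = 0.000195). Atp6v1c1 (subunit C, a link between stalks and membrane) had 114 and 116 TPM with poly(I:C), against 98.2 and 96.6 TPM in untreated cells, and rose 1.18-fold (adjusted p = 0.00096). Atp6v1h (subunit H, which keeps free V1 inactive) had 146 and 148 TPM with poly(I:C), against 111 and 115 TPM in untreated cells, and rose 1.30-fold (adjusted p = 0.000232). Atp6v1g1 (subunit G) was the V1 member that did not pass. It had 340.0 and 338 TPM with poly(I:C), against 331 and 326 TPM in untreated cells (log2 fold change 0.04, adjusted p = 0.162).

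In the V0 sector, 5 of the 6 members tested rose (83.3%, against 28.4% of all tested genes). None fell (against 32.4%), and the median log2 fold change was 0.48. Atp6v0c, on chromosome 17 (chr17:24163865-24169678, GRCm38.p6), encodes subunit c, which forms most of the proton-carrying ring. It had 1009 and 1016 TPM with poly(I:C), against 388 and 384 TPM in untreated cells. No library of either group came near the other group. The gene rose 2.62-fold (log2 fold change 1.39 with an SE of 0.022, adjusted p = 9.94e-07), and its rank among the members by level was 2 with poly(I:C) and 6 in untreated cells. By log2 fold change it was ranked 408 among the 3556 genes that rose.

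Atp6v0b, for the related ring subunit c″, also rose. It had 467 and 480.1 TPM with poly(I:C), against 395 and 416 TPM in untreated cells, a 1.17-fold rise (log2 fold change 0.22, SE 0.034, adjusted p = 0.00251). The ratio of Atp6v0c to Atp6v0b was 2.16 and 2.12 with poly(I:C), against 0.981 and 0.922 in untreated cells. By TPM, Atp6v0c and Atp6v0b were thus near parity in untreated cells, and Atp6v0c was the higher after poly(I:C). The amounts of the ring subunits themselves were not measured. This ratio was not tested, since an exact permutation of 2 libraries against 2 cannot go below p = 0.333. The pseudogene Atp6v0c-ps2, whose reads may be shared with Atp6v0c, was at 1.56 and 1.85 TPM with poly(I:C), against 1.11 and 0.550 TPM in untreated cells.

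Subunit a, which lines the proton path and directs the pump to its compartment, is encoded by a family of genes, and here the members moved with the non-member paralogue Tcirg1. Atp6v0a1 had 38.7 and 37.1 TPM with poly(I:C), against 19.5 and 18.1 TPM in untreated cells, and rose 2.02-fold (log2 fold change 0.97, SE 0.057, adjusted p = 5.78e-05). Atp6v0a2 had 115 and 114 TPM with poly(I:C), against 76.1 and 75.2 TPM in untreated cells, and rose 1.51-fold (log2 fold change 0.59, adjusted p = 3.14e-05). Tcirg1, which encodes the a3 form known from lysosomes and osteoclasts, had 416 and 405 TPM with poly(I:C), against 213 and 182 TPM in untreated cells, and rose 2.08-fold (log2 fold change 1.06, SE 0.080, adjusted p = 0.000412). Atp6v0a4, the a4 form known from kidney, was at 0.0186 TPM or listed at 0.

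Summed over the family, subunit a had 569 and 556 TPM with poly(I:C), against 309 and 275 TPM in untreated cells. Tcirg1 held 73.1% and 72.8% of this sum with poly(I:C), against 69.0% and 66.1% in untreated cells. The share of Atp6v0a2 was 20.1% and 20.5% with poly(I:C), against 24.7% and 27.4% in untreated cells. The share of Atp6v0a1 was 6.80% and 6.67% with poly(I:C), against 6.34% and 6.58% in untreated cells. Thus all of these forms were higher, the a3 share was higher and the a2 share lower in treated cells, with no overlap between groups and no test of the shares.

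**Figure D3:**
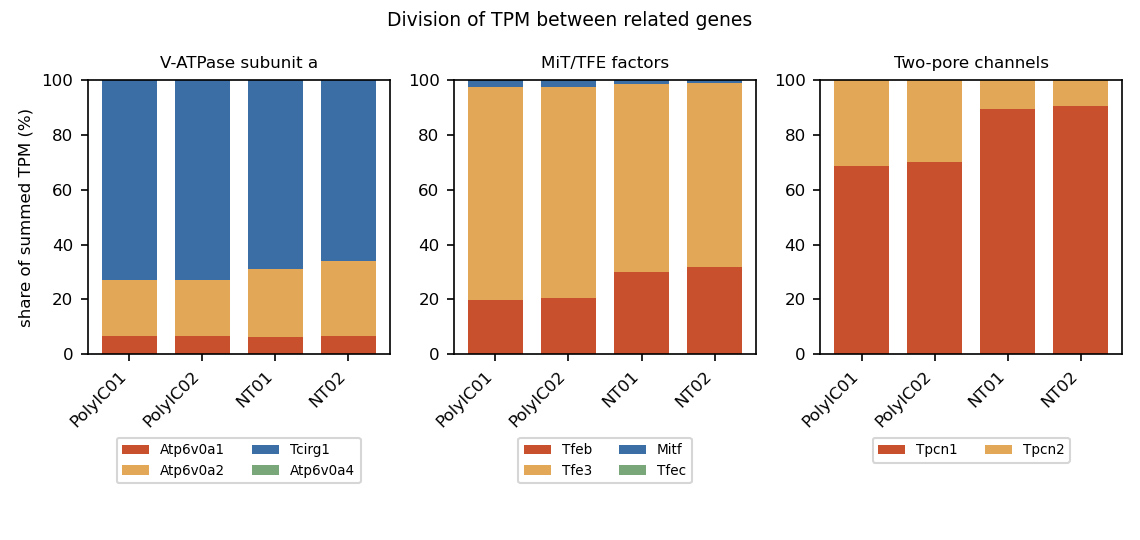
Percent of summed TPM held by each paralogue for subunit a of the V-ATPase, the MiT/TFE transcription factors and the two-pore channels, with the poly(I:C) libraries left of the untreated libraries in each panel. The Tpcn1 share is 68.8% and 70.1% with poly(I:C), against 89.4% and 90.4% in untreated cells, and the Tfeb share is also lower with poly(I:C).

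Subunit d, which couples the ring to the shaft, came from Atp6v0d1. It had 374 and 372 TPM with poly(I:C), against 282 and 294 TPM in untreated cells, and rose 1.29-fold (log2 fold change 0.37, adjusted p = 0.000199). Its paralogue Atp6v0d2, known from osteoclasts and macrophages, was under the testing limit at 0.252 and 0.264 TPM with poly(I:C), against 0.333 and 0.389 TPM in untreated cells. Atp6v0d2 thus held 0.0675% and 0.0709% of subunit d transcripts with poly(I:C), against 0.118% and 0.132% in untreated cells. Atp6v0e, for the small subunit e, was the tested member whose groups overlapped. It had 342 and 357 TPM with poly(I:C), against 350.3 and 349 TPM in untreated cells, so that the means were 349.9 ± 10.8 TPM with poly(I:C) and 349.8 ± 0.792 TPM in untreated cells (SD, n = 2 each).

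The sums over each sector were higher too. V1 members summed to 1821 and 1843 TPM with poly(I:C), against 1373 and 1387 TPM in untreated cells. V0 members summed to 2346 and 2377 TPM with poly(I:C), against 1511 and 1538 TPM in untreated cells. Paralogues known from other tissues were scarce: Atp6v1b1, Atp6v1c2, Atp6v1e2 and Atp6v1g3 stayed at 0.131 TPM or less in every library, and Atp6v0e2 was listed at 0. Atp6v1g2, the brain form of subunit G, had 0.820 and 0.282 TPM with poly(I:C), against 1.68 and 0.554 TPM in untreated cells, with overlapping groups (adjusted p = 0.317). Atp6v1g1 accounted for 99.8% and 99.9% of subunit G transcripts with poly(I:C), against 99.5% and 99.8% in untreated cells.

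The accessory proteins of the pump went in different directions. Atp6ap2, for the accessory protein also known as the prorenin receptor, had 172 and 170.3 TPM with poly(I:C), against 155 and 151 TPM in untreated cells, and rose 1.11-fold (log2 fold change 0.16, adjusted p = 0.00465). Atp6ap1, for the other accessory protein, which helps to assemble V0, had 119.8 and 124 TPM with poly(I:C), against 129.7 and 131 TPM in untreated cells. It fell by a small amount (log2 fold change -0.10, SE 0.030, adjusted p = 0.0342). This call was lost under 7 of the 12 other settings, leaving out any of the 4 libraries among them, and its adjusted p ran from 0.0121 to 0.187. Over the 16 V-ATPase members tested, 13 rose (81.2%) and Atp6ap1 alone fell, with a median log2 fold change of 0.37. Over the 15 other members tested, 8 rose (53.3%) and 4 fell (26.7%), with a median of 0.33. Of all tested genes 28.4% rose and 32.4% fell, so the share of these other members that fell was near the background.

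**Figure D4:**
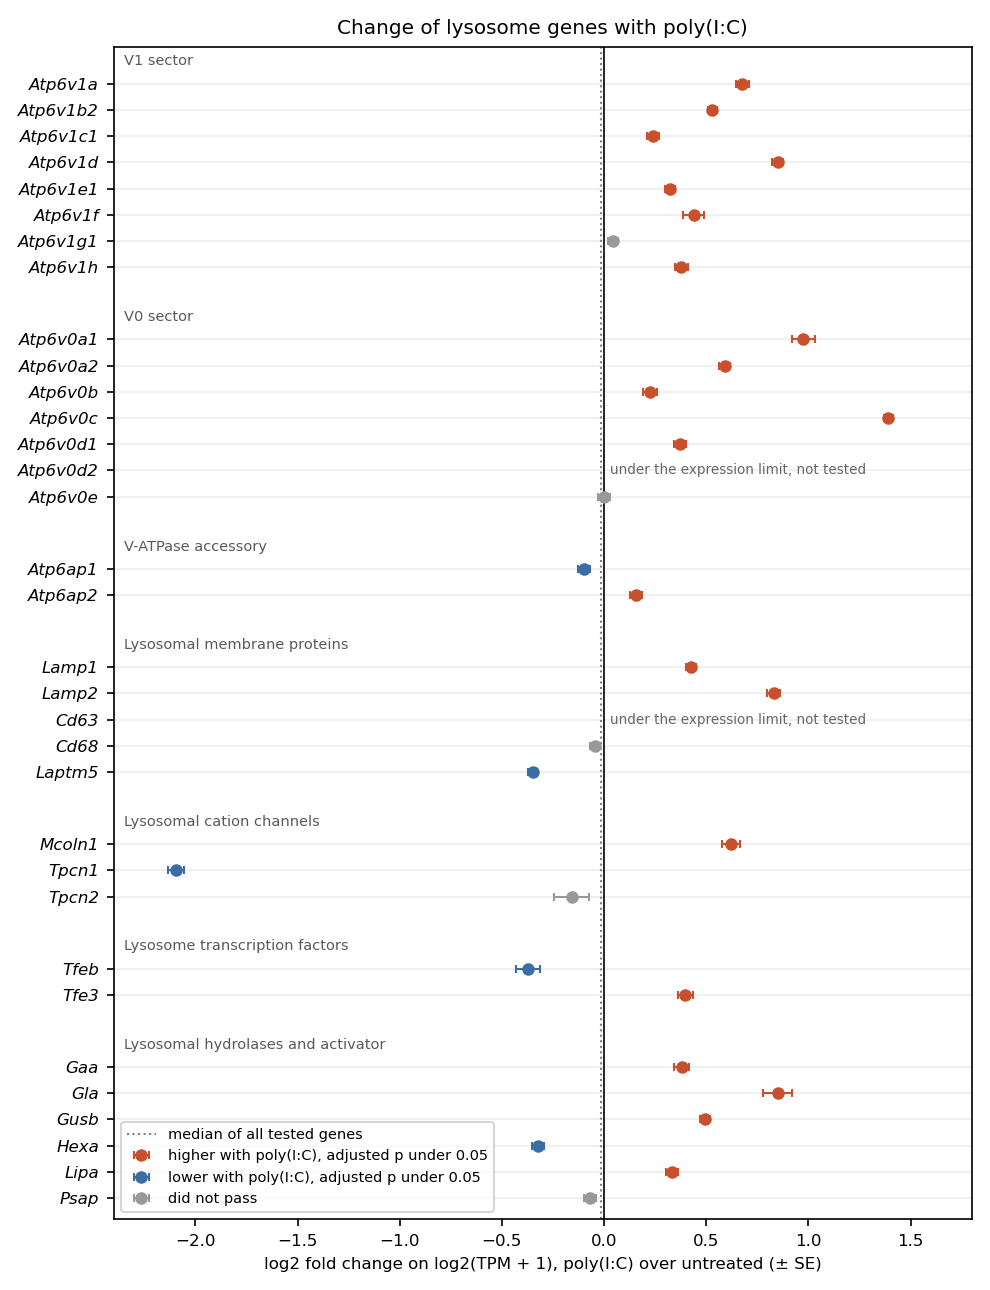
Log2 fold change (x axis, poly(I:C) over untreated, on log2(TPM + 1)) of each tested member by role, with its standard error as a bar and its call by colour. Atp6v0c at 1.39 and Tpcn1 at -2.09 are the ends of the range, and most V-ATPase members lie right of 0.

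Among the membrane proteins, 2 rose, Laptm5 fell and Cd68 did not pass. Lamp1 had 894 and 915 TPM with poly(I:C), against 673 and 675 TPM in untreated cells, and rose 1.34-fold (log2 fold change 0.42, SE 0.023, adjusted p = 4.49e-05). Lamp2, which is also the receptor of chaperone-mediated autophagy in its A form, had 314 and 304 TPM with poly(I:C), against 169.8 and 177 TPM in untreated cells. It rose 1.78-fold (log2 fold change 0.83, SE 0.033, adjusted p = 1.61e-05). The ratio of Lamp1 to Lamp2 was 2.85 and 3.00 with poly(I:C), against 3.96 and 3.81 in untreated cells, so Lamp2 gained on Lamp1 in both treated libraries.

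Lamp2 transcripts differ in their last exon, and both abundant ones were higher after poly(I:C). The transcript that GENCODE names Lamp2-201 had 188 and 189 TPM with poly(I:C), against 91.5 and 97.4 TPM in untreated cells. Lamp2-202 had 122 and 112 TPM with poly(I:C), against 76.7 and 78.2 TPM in untreated cells. Lamp2-201 thus made up 60.0% and 62.0% of Lamp2 with poly(I:C), against 53.8% and 54.9% in untreated cells. Single transcripts were not tested, and the split of reads between transcripts of a gene is an estimate.

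Laptm5, for a lysosomal membrane protein of blood cells that is known to promote the breakdown of antigen receptors, had 393 and 390.0 TPM with poly(I:C), against 499 and 498 TPM in untreated cells. It fell to 0.785 of its untreated mean (log2 fold change -0.35, SE 0.023, adjusted p = 8.5e-05). Cd68, a LAMP-family protein of macrophages and dendritic cells, had 241 and 246 TPM with poly(I:C), against 252 and 251 TPM in untreated cells (log2 fold change -0.05, adjusted p = 0.164). Under quantile normalization it passed (log2 fold change -0.08, adjusted p = 0.0292), and its adjusted p over all settings ran from 0.0292 to 0.535. Cd63, for a tetraspanin of late endosomes, was under the limit at 0.205 and 0.236 TPM with poly(I:C), against 0.0387 and 0.0671 TPM in untreated cells. Of its 3 transcripts in the table, 2 were listed at 0 in every library. These values are far below those of the other membrane members, and whether reads of this gene went to an unmatched entry was not tested.

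The ion channels moved in opposite directions. Tpcn1 (chr5:120534157-120588678, GRCm38.p6) encodes a two-pore channel of endosomes and lysosomes. It had 20.3 and 20.0 TPM with poly(I:C), against 90.2 and 87.9 TPM in untreated cells. The treated level was 0.226 of the untreated mean (log2 fold change -2.09, SE 0.039, adjusted p = 1.65e-06), and the fall held under every setting run, with log2 fold changes of -2.14 to -2.06. By log2 fold change it was ranked 15 among the 4062 genes that fell. Its main transcript, Tpcn1-201, had 16.9 and 17.8 TPM with poly(I:C), against 79.9 and 71.4 TPM in untreated cells. Its 2 predicted transcripts were lower as well, at 0.911 and 0.819 TPM and at 2.44 and 1.36 TPM with poly(I:C), against 3.35 and 4.56 TPM and 6.89 and 12.0 TPM in untreated cells.

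Tpcn2, for the other two-pore channel of mouse lysosomes, was low in both groups. It had 9.18 and 8.52 TPM with poly(I:C), against 10.7 and 9.31 TPM in untreated cells, and did not pass (log2 fold change -0.16, adjusted p = 0.166). Without NT02 it passed as lower (-0.25, adjusted p = 0.0463), and with curated transcripts alone the value was 0.37 and did not pass. Its adjusted p ran from 0.0463 to 0.558 over the settings. Tpcn1 held 68.8% and 70.1% of two-pore channel transcripts with poly(I:C), against 89.4% and 90.4% in untreated cells.

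Mcoln1 (chr8:3500519-3515232, GRCm38.p6), whose promoter is among the printed sequences, had 105 and 107 TPM with poly(I:C), against 71.1 and 66.1 TPM in untreated cells. It rose 1.54-fold (log2 fold change 0.62, SE 0.043, adjusted p = 0.000107). The ratio of Mcoln1 to Tpcn1 was 5.20 and 5.34 with poly(I:C), against 0.788 and 0.752 in untreated cells. The channel with the higher level was therefore Tpcn1 in untreated cells and Mcoln1 after poly(I:C).

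The transcription factors also split. Tfeb (chr17:47737037-47792416, GRCm38.p6), the factor best known for driving lysosome genes, had 13.9 and 14.1 TPM with poly(I:C), against 17.8 and 19.0 TPM in untreated cells. It fell to 0.760 of its untreated mean (log2 fold change -0.37, SE 0.058, adjusted p = 0.00273). Tfe3 (chrX:7762530-7775202, GRCm38.p6), its relative with the same binding letters, had 53.8 and 52.6 TPM with poly(I:C), against 40.5 and 39.8 TPM in untreated cells. It rose 1.32-fold (log2 fold change 0.40, SE 0.037, adjusted p = 0.000372). A predicted transcript held 64.8% to 73.3% of its TPM, and with curated transcripts alone it did not pass (log2 fold change 0.16, adjusted p = 0.306, in a range of 0.000205 to 0.306 over the settings).

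Summed over the MiT/TFE family there were 69.5 and 68.4 TPM with poly(I:C), against 59.1 and 59.5 TPM in untreated cells. Tfeb held 19.9% and 20.6% of this sum with poly(I:C), against 30.1% and 31.9% in untreated cells, and Tfe3 held 77.4% and 76.9% with poly(I:C), against 68.5% and 66.9% in untreated cells. Mitf, the melanocyte-type member of the family, was scarce at 1.87 and 1.73 TPM with poly(I:C), against 0.838 and 0.689 TPM in untreated cells, but rose (log2 fold change 0.67, SE 0.098, adjusted p = 0.00219). Tfec was listed at 0. These are transcript levels. The activity of these factors is known to be set largely by phosphorylation and entry to the nucleus, which RNA does not measure.

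Of the 17 members that rose and had a promoter window, 7 held CACGTG and 4 held TCACGTGA, and of the 4 that fell none held either. Of the 4 with a window that did not pass, Atp6v0e alone held the letters. Of all genes with a window, 8.09% held CACGTG and 1.12% held TCACGTGA, so none among 4 says nothing about the members that fell. With so few windows these are counts only.

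Among the hydrolases, 4 of the 6 members rose (66.7%), Hexa fell (16.7%) and Psap did not pass, where 28.4% of all tested genes rose and 32.4% fell. Gusb, for beta-glucuronidase, had 389.7 and 392 TPM with poly(I:C), against 274 and 280.4 TPM in untreated cells, and rose 1.41-fold (log2 fold change 0.49, adjusted p = 3.48e-05). Gla, for alpha-galactosidase A, had 17.9 and 16.5 TPM with poly(I:C), against 9.41 and 8.81 TPM in untreated cells, and rose 1.89-fold (log2 fold change 0.85, SE 0.069, adjusted p = 0.000208). Gla is the hydrolase with the highest fold and the lowest level of the 6.

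Gaa, for the alpha-glucosidase that breaks down glycogen, had 78.7 and 78.1 TPM with poly(I:C), against 61.3 and 58.6 TPM in untreated cells, and rose 1.31-fold (adjusted p = 0.000394). Lipa, for lysosomal acid lipase, had 88.3 and 89.8 TPM with poly(I:C), against 70.3 and 70.8 TPM in untreated cells, and rose 1.26-fold (adjusted p = 0.000342). Both groups of libraries were tight for these genes and did not overlap.

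Hexa, for the alpha subunit of beta-hexosaminidase, went the other way. It had 341 and 356 TPM with poly(I:C), against 435 and 438 TPM in untreated cells (log2 fold change -0.32, SE 0.030, adjusted p = 0.000331). Its curated transcript held 24.6% and 24.8% of the gene's TPM with poly(I:C), against 29.5% and 30.2% in untreated cells, and the rest came from predicted transcripts. With the curated transcript alone the fall was larger (log2 fold change -0.59), and the adjusted p ran from 0.000169 to 0.00622 over the settings. Psap had 5374 and 5604 TPM with poly(I:C), against 5668 and 5852 TPM in untreated cells, and did not pass (log2 fold change -0.07, adjusted p = 0.0852). It passed as lower without PolyIC02 (-0.10, adjusted p = 0.0435) and as higher under quantile normalization (0.11, adjusted p = 0.00198), so its direction depends on the scaling. Its adjusted p ran from 0.00198 to 0.474.

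Other lysosome genes were read from 6 lists. Of 111 listed, 92 were tested, 46 rose and 18 fell (19.6%), and the median log2 fold change was 0.14. By list, the other V-ATPase genes held 1 that rose of 3 tested, and genes for pump assembly and regulation held 5 that rose and 2 that fell of 9. Other membrane genes held 12 that rose and 3 that fell of 21, with the highest median, 0.52. Other hydrolases and their cofactors held 12 that rose and 9 that fell of 30, with a median of 0.11.

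In the list of pump assembly and regulation, Ncoa7 alone rose 2-fold or more by log2 fold change. Ncoa7, whose product binds the V-ATPase and has an interferon-induced form, had 86.2 and 80.6 TPM with poly(I:C), against 31.2 and 32.2 TPM in untreated cells (log2 fold change 1.37, adjusted p = 9.48e-06). Vma21, for a V0 assembly factor, had 44.4 and 41.4 TPM with poly(I:C), against 27.0 and 26.8 TPM in untreated cells (0.65, adjusted p = 0.00016). Wdr7, for a rabconnectin subunit, had 7.78 and 7.13 TPM with poly(I:C), against 5.11 and 3.84 TPM in untreated cells (0.64, adjusted p = 0.00736). All these rose with no overlap between groups. The 2 genes of the list that fell were Rogdi (-0.58, adjusted p = 0.00129) and Oxr1 (-0.50, adjusted p = 0.00473).

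In the membrane list, Laptm4b, a relative of the member Laptm5, moved opposite to it. It had 126 and 123 TPM with poly(I:C), against 39.6 and 38.8 TPM in untreated cells, and rose 3.18-fold (log2 fold change 1.64, adjusted p = 2.29e-06). Npc2, for the soluble luminal protein that hands cholesterol to the membrane protein NPC1, had 648 and 641 TPM with poly(I:C), against 233 and 229.5 TPM in untreated cells, and rose 2.78-fold (adjusted p = 1.09e-06). Slc15a3, for a lysosomal histidine and peptide transporter, had 116 and 113 TPM with poly(I:C), against 45.8 and 45.4 TPM in untreated cells (1.31, adjusted p = 3.71e-06). The log2 fold changes of Laptm4b and Npc2 (1.47) were above that of Atp6v0c, the highest among the members, and that of Slc15a3 was below it. These differences were not tested.

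Among other hydrolases, Fuca1 (alpha-fucosidase) had 186 and 188 TPM with poly(I:C), against 96.4 and 98.5 TPM in untreated cells, and rose (0.93, adjusted p = 6.73e-06). Neu1 (sialidase) had 93.6 and 96.6 TPM with poly(I:C), against 62.5 and 60.9 TPM in untreated cells, and rose (0.62, adjusted p = 4.96e-05). Sgsh (heparan sulfamidase) had 2.08 and 2.14 TPM with poly(I:C), against 4.43 and 4.18 TPM in untreated cells, and fell (-0.77, adjusted p = 0.000686). The list therefore held changes in both directions, as the hydrolase members did. Its share that fell (30.0%) was near that of all tested genes (32.4%).

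The list of MiT/TFE regulation and nutrient sensing held 9 genes that rose (56.2%) and 3 that fell (18.8%) of 16 tested (median 0.20). Lamtor4 and Lamtor2 encode parts of the Ragulator complex, which anchors the Rag GTPases to the lysosome. Lamtor4 had 28.5 and 29.1 TPM with poly(I:C), against 73.3 and 77.1 TPM in untreated cells, and fell (-1.35, adjusted p = 7.98e-06). Lamtor2 had 102 and 105 TPM with poly(I:C), against 203 and 207 TPM in untreated cells, and fell (-0.98, adjusted p = 6.94e-06). Fnip2, for a partner of folliculin, had 90.1 and 86.1 TPM with poly(I:C), against 53.7 and 48.4 TPM in untreated cells, and rose (0.78, adjusted p = 0.000142).

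Of the genes for sorting proteins to lysosomes, 7 rose (53.8%) and 1 fell (7.69%) of 13 tested (median 0.13). M6pr, for the cation-dependent mannose 6-phosphate receptor that carries new hydrolases, had 963 and 930.1 TPM with poly(I:C), against 451 and 453 TPM in untreated cells, and rose 2.09-fold (adjusted p = 3.27e-06). Gnptg, for a subunit of the enzyme that adds the mannose 6-phosphate tag, had 26.9 and 26.3 TPM with poly(I:C), against 17.2 and 15.4 TPM in untreated cells, and rose (0.67, adjusted p = 0.00039). Vps18, for a shared subunit of the HOPS and CORVET tethers, had 58.6 and 57.3 TPM with poly(I:C), against 40.7 and 39.7 TPM in untreated cells, and rose (0.52, adjusted p = 0.00014).

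**Figure D5:**
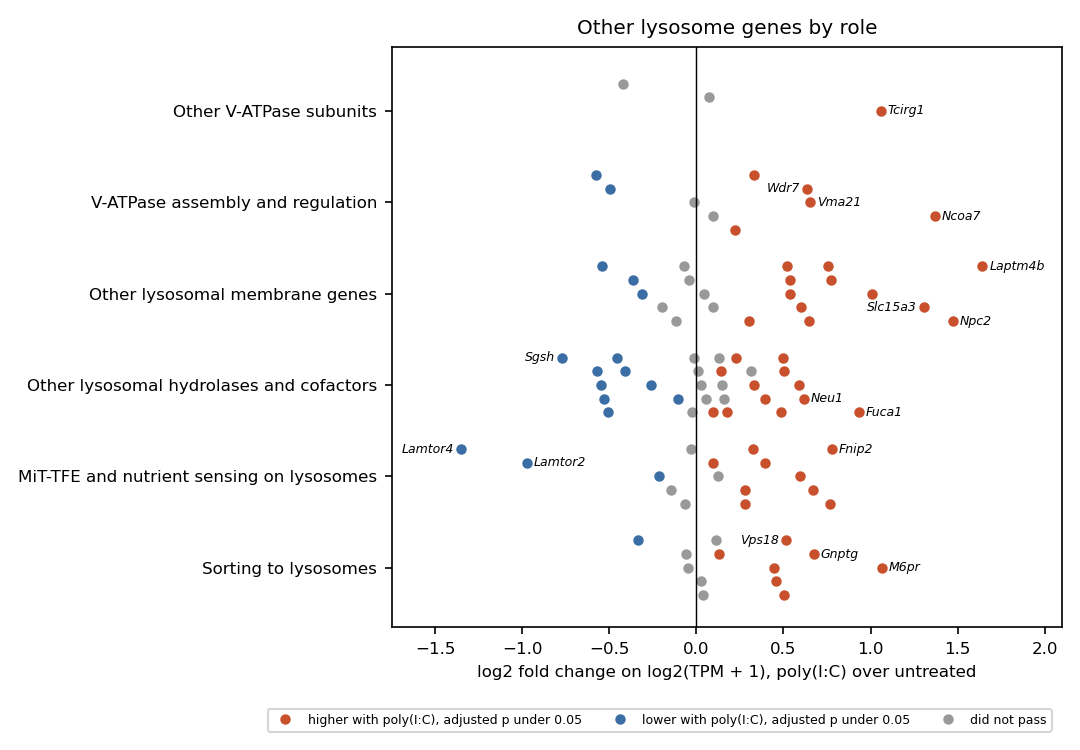
Log2 fold change (x axis, poly(I:C) over untreated, on log2(TPM + 1)) of 92 other lysosome genes by list, 1 point per gene, coloured by call, with up to 3 passing genes of each list named. The points of the membrane list lie mostly right of 0, while those of the hydrolase list lie on both sides of it.

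Marker genes were read beside these results, where again 28.4% of all tested genes rose and 32.4% fell. The 12 cDC1 markers summed to 5103 to 5222 TPM with poly(I:C), against 5299 to 5308 TPM in untreated cells, with 5 risen and 4 fallen. Irf8 and Naaa made up most of this sum. Naaa had 1124 and 1168 TPM with poly(I:C), against 1184 and 1230 TPM in untreated cells, and did not pass. Irf8, the factor that defines this lineage, had 2558 and 2639 TPM with poly(I:C), against 2482 and 2477 TPM in untreated cells, and Itgae was under 1 TPM. Xcr1 rose, with 335 and 326 TPM with poly(I:C), against 194 and 191 TPM in untreated cells. The markers that fell were Cd24a (fold 0.373), Tlr3 (0.568), Flt3 (0.558) and Batf3 (0.810), so the nearly level sum covers changes in both directions. Of 12 macrophage and monocyte markers, 9 were tested and 8 rose, with sums of 552 and 561 TPM with poly(I:C), against 122 and 116 TPM in untreated cells. The highest of them were the C1q genes and Ms4a7, while the receptor Csf1r was listed at 0 in both poly(I:C) libraries and was at 0.272 and 0.469 TPM in untreated cells. Mertk was at 0.0387 TPM or less, and Adgre1 had 1.07 and 1.70 TPM with poly(I:C), against 0.972 and 0.871 TPM in untreated cells. Fcgr1, counted among the 8 that rose, had 4.76 and 4.66 TPM with poly(I:C), against 0.356 and 0.299 TPM in untreated cells. It reached the testing limit through the poly(I:C) libraries alone.

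The osteoclast list, read because Tcirg1 and Atp6v0d2 are known from those cells, summed to 948 and 1002 TPM with poly(I:C), against 1966 and 1938 TPM in untreated cells. Of its 7 genes 3 were tested, 2 rose and 1 fell, and most of the sum was Mmp9, which fell, with 770.4 and 817 TPM with poly(I:C), against 1833 and 1806 TPM in untreated cells. Ocstamp rose, with 172 and 178 TPM with poly(I:C), against 131 TPM in both untreated libraries, and so did Dcstamp, with 5.62 and 5.58 TPM with poly(I:C), against 1.60 and 1.12 TPM in untreated cells. Acp5, Ctsk and Oscar were under 1 TPM, and Calcr was listed at 0. The 6 cDC2 markers summed to 38.3 and 37.8 TPM with poly(I:C), against 7.09 and 7.26 TPM in untreated cells, with 2 of 3 tested risen and Cd209a and Clec4a4 listed at 0. Most of that sum was Cd4, which rose, at 35.5 ± 0.625 TPM with poly(I:C), against 6.27 ± 0.331 TPM in untreated cells (SD, n = 2 each). Sirpa is counted as risen too, with 1.79 and 2.14 TPM with poly(I:C), against a value listed at 0 in NT01 and 0.365 TPM in NT02. It reached the 0.5 TPM testing limit through the poly(I:C) libraries alone. The 7 plasmacytoid markers summed to 1303 and 1277 TPM with poly(I:C), against 202 TPM or less in untreated cells, with 2 of 4 tested risen and 1 fallen. Most of that sum was Bst2, which is also an interferon-stimulated gene, and Ly6d was listed at 0. Pacsin1, the other gene counted as risen, had 3.90 and 4.02 TPM with poly(I:C), against 0.402 and 0.318 TPM in untreated cells. It too reached the testing limit through the poly(I:C) libraries alone. The 8 T cell, B cell and epithelial markers summed to 16.2 and 14.9 TPM with poly(I:C), against 14.6 and 15.9 TPM in untreated cells, with 2 of 4 tested risen, 2 fallen, and Cd3e and Krt8 listed at 0. The part of the macrophage, cDC2, plasmacytoid and osteoclast list sums in the lysosome results was not tested.

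For 6 members an exon overlaps a gene on the opposite strand in GENCODE M21 (Atp6v1e1, Atp6v1h, Atp6v0a2, Atp6v0b, Lamp1 and Hexa). The libraries keep strand, but the sources used here do not say whether the quantification used it, so reads of such pairs may be shared. The partner genes that had values were at 0.136 to 2.61 TPM, far under the members.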

How the data were processed

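Per the labels' protocols, poly(A) RNA was made into directional libraries with a NEBNext Ultra II kit. Tools named, without role or order, in the submitters' processing notes are kallisto 0.42.4 and bcl2fastq 2.20.0.422, with the build GRCm38. The authors deposited values per RefSeq transcript under the name FPKM. Each column used sums to 1000000, so the deposited values were read as TPM, a unit without depth. The header lacks 1 name: the cell after NT01 is empty, and the names that follow may be shifted by 1 column. NT01, NT02, PolyIC01 and PolyIC02 fall in the same group under either reading. The values of 2 further columns entered no step.

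Of 107384 transcripts, 86722 (80.8%) matched a RefSeq symbol (GRCm38.p6) and held 91.8% to 92.2% of each library's TPM. The 20662 unmatched transcripts were left out. TPM was summed per gene, and genes averaging 0.5 TPM or more were tested with limma 3.58.1 (R 4.3.3) on log2(TPM + 1), with trend and robust moderation, 2 residual degrees of freedom and Benjamini-Hochberg adjustment. A gene that is low in 1 group can reach that limit through the other group alone. The markers Sirpa, Fcgr1 and Pacsin1 did so through the treated libraries. Cdh1 and the sorting gene Sort1, both counted as fallen, did so through the untreated ones. Plots were drawn with matplotlib 3.10.9 and tables made with pandas 2.3.3 in Python 3.11.15.

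Members, gene lists and tests were chosen with earlier results of these data known. The text names every member, up to 3 passing genes with the largest change in each other list, and the paralogues of V-ATPase subunits. It also names Rogdi and Oxr1, Mitf and Tfec, Ifit3 and Irf7, and markers, among them the highest. Alternatives were the pseudocount, the filter, moderation, curated transcripts, scaling and leaving out each library. Some genes of these lists are not reported here.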

Additional observations from a re-analysis of the deposited data

How the results depend on the processing

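In all, 12 alternative settings were run. The members that rose numbered 20 to 22 and those that fell 4 to 6, and of the 26 called, 25 or 26 kept call and direction in each setting. Over all genes 2561 to 3873 rose and 3402 to 4524 fell, and of the other lysosome genes 39 to 46 rose and 16 to 22 fell. Leaving out a library in turn is part of these ranges, and the lone library of a group is then assumed to vary like the other group. Psap reversed under quantile normalization (log2 fold change 0.11, adjusted p = 0.00198), as did Ppt1 (-0.070, adjusted p = 0.0467), and neither had passed with all libraries and TPM as deposited. With curated transcripts alone Dmxl1 (-0.050), Cln3 (-0.089) and Rptor (-0.62) changed sign and did not pass (adjusted p of 0.834, 0.647 and 0.262, in that order). The causes were not tested. No paired analysis was possible because the columns carry no settled replicate numbers other than that of NT01, and the planned replicate block was not run. Depth is unknown, so how far it limits the low members Tpcn2, Gla, Atp6v0d2 and Cd63 cannot be given.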

Other observations

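Some genes of glycolipid breakdown and of mannose removal fell, and these were picked after their values were seen. Gm2a, for the activator protein of GM2 ganglioside breakdown, had 271 and 280.0 TPM with poly(I:C), against 369.8 and 388 TPM in untreated cells (limma, adjusted p = 0.000145). Man2b1 and Manba, for lysosomal mannosidases, also fell: Man2b1 had 499 and 505 TPM with poly(I:C), against 733 and 735 TPM in untreated cells, and Manba had 20.0 and 20.3 TPM with poly(I:C), against 29.5 and 29.6 TPM in untreated cells.

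Genes of the folliculin complex, which acts on Rag GTPases at the lysosome, rose. Flcn had 17.5 and 19.5 TPM with poly(I:C), against 12.6 and 11.2 TPM in untreated cells (adjusted p = 0.00173), and Fnip1 had 27.6 and 25.7 TPM with poly(I:C), against 16.1 and 14.4 TPM in untreated cells (adjusted p = 0.000385). Within Ragulator, Lamtor3 rose (157 and 155 TPM with poly(I:C), against 122 and 116 TPM in untreated cells), while Lamtor1 did not pass (215 and 217 TPM with poly(I:C), against 219.9 and 222 TPM in untreated cells).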
